A study of Rattus norvegicus with 86 samples.

Results

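Some gene models of the rat genome carry no gene symbol and are known only by the name of the sequence contig on which they were annotated, a name that starts with AABR, followed by the number of the contig and, after a point, the number of the model on it. They were followed here in RNA-Seq expression values of the prelimbic cortex, a part of the medial prefrontal cortex, of 80 heterogeneous stock (HS) rats. Members were the rows of the expression table whose Ensembl identifier is paired with such a name in the study's lists. The first list gives genes with an expression quantitative trait locus (eQTL) by brain region. Only its infralimbic cortex rows for chromosomes 1 to 7 were held here, so its prelimbic rows were not used. The second list gives the strongest eQTLs found in a single brain region. As held here, the lists named 151 such models, of which 64 stood in the first, 98 in the second and 11 in both. The expression table held 146 of them among its 17250 rows, on 141 contigs. The other 5 (AABR07004507.1, AABR07005593.1, AABR07034706.1, AABR07044460.2 and AABR07071210.2) had no row.

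The label "uncharacterised" fits the names but not all of the genes. In the RefSeq gene table used here (build GRCr8), 6 of the 146 members were found by name. RefSeq gave AABR07051376.1 the symbol Ppp1r26, AABR07063279.1 the symbol Fndc4, AABR07005779.1 the symbol Prr14 and AABR07052486.1 the symbol Mettl8, all protein coding. AABR07033987.1 was entered as Gng5-ps4, a pseudogene, and AABR07058254.1 was protein coding under its clone name.

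Clone-based names are given by annotation pipelines when a transcript model cannot be tied to a known gene or to an ortholog with a name. Such models can be protein-coding genes missed by naming, non-coding RNAs, pseudogenes, or extra copies of a gene on a contig that was hard to place, and they are often kept out of pathway lists because nothing is recorded of their function. Reads that match several copies equally well cannot be assigned with certainty by the estimator the authors used, so the value of a model from a repeated sequence is shared with its copies.

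HS rats are an outbred population bred from inbred founder strains, and no animal had received a drug or taken part in a behavioral experiment. One library was made per rat from polyA RNA of tissue taken from both hemispheres. There were 40 males and 40 females in 5 rat batches, named by the labels without saying what a batch shares: 14 rats in batch 2 (3 female), 23 in batch 3 (13 female), 26 in batch 4 (15 female), 1 female in batch 5 and 16 in batch 6 (8 female). The labels give no age for a rat and no treatment group, so sex and batch were the comparisons that could be made. A further 6 of the 86 samples were removed by the authors and were not analysed.

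The values are log2 of an adjusted read count after adding 1, and each was turned back into the adjusted count, called reads below. They are not divided by gene length, so differences between models in reads are differences in signal, not in transcripts. Library depth recovered from the values ran from 10174405 to 32643825 reads, with a median of 18203760.5. The members together took 0.145% to 0.195% of the reads of a library. Of the 35 marker genes listed for cell types of the cortex and its surroundings, 5 had an identifier in the lists: the excitatory neuron gene Neurod6 (mean log2 11.08), the interneuron gene Vip (10.16), the astrocyte gene Aldh1l1 (7.99), the fibroblast gene Dcn (7.87) and the blood gene Hbb (9.29), so the cell make-up could be checked only in part. In bulk tissue, fewer cells of a type and less RNA per cell cannot be told apart.

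RefSeq promoters were in hand for 4 of the 6 members found by name. The pair printed here belongs to the members with the smallest and the third smallest p for rat batch below, which differed between the batches in opposite directions. Each runs from 250 bases before to 50 after the annotated start, 5′ to 3′, in build GRCr8. Capitals mark the GC box GGGCGG, the core of an Sp-family binding site, searched on both strands and with overlapping matches counted.
Ppp1r26 (AABR07051376.1), chr3:32179436-32179735, plus strand: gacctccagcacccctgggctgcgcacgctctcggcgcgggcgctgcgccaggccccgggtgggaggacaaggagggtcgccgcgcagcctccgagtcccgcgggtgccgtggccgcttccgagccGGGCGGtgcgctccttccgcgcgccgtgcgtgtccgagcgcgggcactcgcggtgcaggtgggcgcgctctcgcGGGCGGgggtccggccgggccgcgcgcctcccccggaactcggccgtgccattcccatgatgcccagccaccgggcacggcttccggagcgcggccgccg
Fndc4 (AABR07063279.1), chr6:30796852-30797151, plus strand: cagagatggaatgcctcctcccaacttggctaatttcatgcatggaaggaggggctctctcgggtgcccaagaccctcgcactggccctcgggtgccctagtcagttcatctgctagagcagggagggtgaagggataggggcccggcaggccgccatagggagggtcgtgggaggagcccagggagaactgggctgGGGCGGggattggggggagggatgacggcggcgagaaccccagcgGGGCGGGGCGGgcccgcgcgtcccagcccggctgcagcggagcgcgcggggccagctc
The Ppp1r26 window held 2 boxes and 50 CG pairs at 79.7% G and C, more CG pairs than 99.3% of the 33469 promoters of the table. The Fndc4 window held 3 boxes, of which 2 overlap, and 21 CG pairs at 69.7% G and C. Prr14 had 1 box and 18 CG pairs, and Mettl8 had 3 boxes, all on the other strand, and 23 CG pairs. A GC box was present in 33.1% of all promoters in the table, whose median was 7 CG pairs, so all 4 windows hold a common motif and are richer in CG pairs than the median promoter. A match is a string of letters and was not tested for binding.

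The clone-named gene models were weakly expressed. The median over the 146 members of the mean log2 value was 4.49, against 8.0 over the whole table. The other genes in the same lists gave 8.69 for 3004 genes with an ordinary symbol, 6.40 for 120 with a placeholder name (LOC, RGD or MGC and a number) and 4.79 for 22 named by a sequence accession. A mean under 5 was found in 87 members (59.6%), against 24.5% of the table and 14.4% of the genes with an ordinary symbol. In reads, 57 members had a median under 10 (39.04%, against 15.1% of the table) and 7 had a median over 1000.

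**Figure D1:**
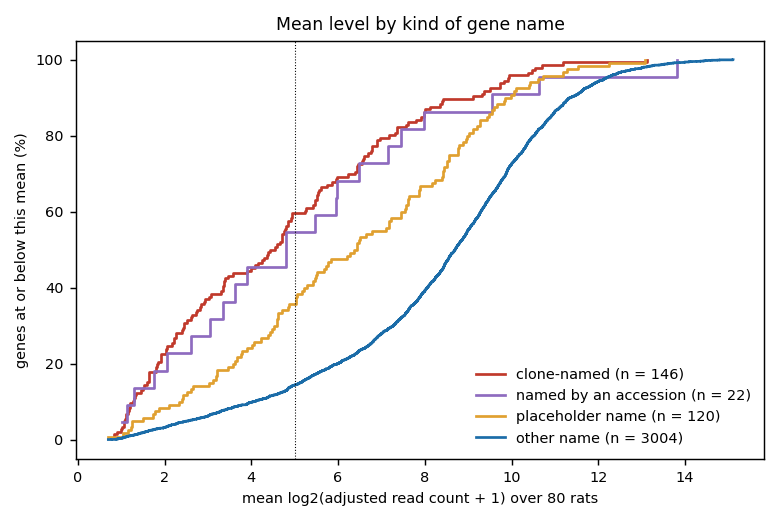
Cumulative share of genes (y, percent) at or below a mean log2(adjusted read count + 1) over 80 rats (x), by kind of name in the study's lists. The clone-named curve runs with the accession-named one and to the left of the placeholder and ordinary names; at 5 (dotted line) 59.6% of clone-named models lie below, against 14.4% of genes with an ordinary symbol.

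Only the strongest model stood far above the rest. AABR07058422.1 had from 6785 to 11124 reads (median 8945.5), all above the highest value of any other member, and it took 28.8% of all member reads. AABR07016141.1 followed with 1626 to 3807 reads (median 2345.5), above the others by its median. The next 3 formed a close group: AABR07027306.1 had 1202 to 2120 reads (median 1660.5), AABR07006627.1 1160 to 1872 (median 1486) and AABR07064804.1 1124 to 1719 (median 1447). Their ranges overlap widely, so neighbours in this order are not separated rat by rat. None of these 5 was found in RefSeq by name.

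The members with a RefSeq symbol were spread over the scale. Fndc4, a membrane protein with a fibronectin type III domain, had a mean log2 value of 9.72 ± 0.16 (SD, n = 80 rats). Ppp1r26, a regulatory subunit of protein phosphatase 1, had 9.32 ± 0.24. Prr14, a nuclear protein that holds heterochromatin at the lamina, had 7.97 ± 0.22, with 145 to 335 reads. Mettl8, which methylates mitochondrial tRNA, had 6.54 ± 0.24, with 61 to 130 reads. All 4 had reads in every rat and lay above the median member. The remaining pair lay near the bottom: Gng5-ps4, named as a pseudogene of a G protein gamma subunit, had a mean of 1.64 ± 1.49, and AABR07058254.1 had 1.64 ± 1.03 and was at 0 in 15 rats.

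At the other end, 33 members had a mean log2 value under 2. The 5 lowest were AABR07030773.1 (mean 0.82, 0 to 11 reads), AABR07043698.1 (0.84, 0 to 10 reads), AABR07053283.1 (0.91, 0 to 8 reads), AABR07050545.1 (0.996, 0 to 16 reads) and AABR07060560.3 (1.02, 0 to 5 reads). The median rat had 0 reads of AABR07030773.1 and AABR07050545.1 and 1 read of the other 3. At such levels the step from 0 to 1 read moves the log2 value by 1 unit, and the order of these models is not resolved.

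**Figure D2:**
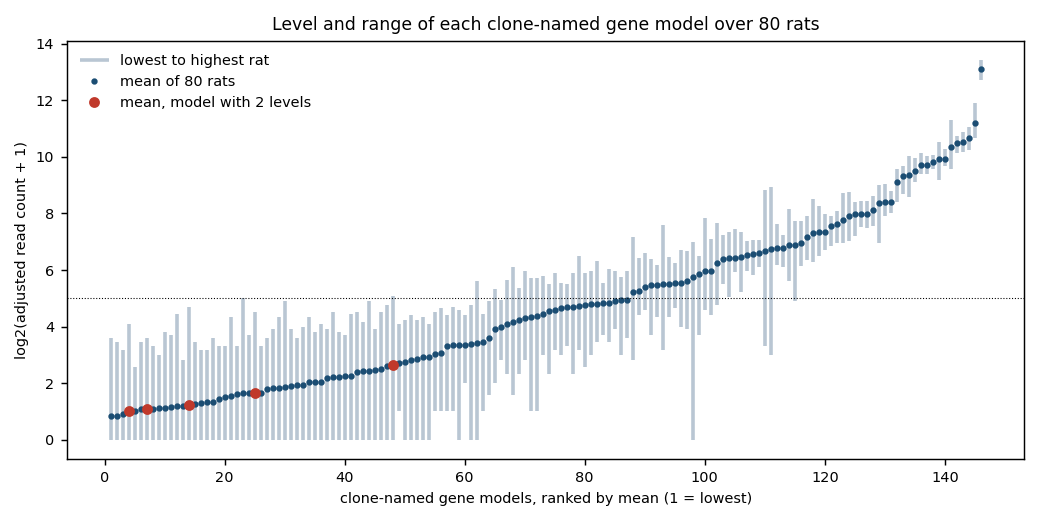
Each of the 146 clone-named gene models in order of its mean (x, rank from lowest), with the mean over 80 rats (point) and the range from the lowest to the highest rat (bar) in log2(adjusted read count + 1) (y). Bars that reach 0 are frequent below the dotted line at 5 and occur once above it; red points are the 5 models with 2 levels, all with a mean under 3.

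At least 1 rat was at 0 in 57 members (39.04%), against 15.8% of the table, and at least 8 rats were at 0 in 37 (25.3%, against 9.63%). This went with the level: among rows with a mean under 5, 64.4% of the members (56 of 87) and 62.7% of all rows had a rat at 0, and among the 59 members above that mean only AABR07009787.1 did. The longest runs of zeros were in AABR07058985.1 (47 rats), AABR07050545.1 (45), AABR07030773.1 (42), AABR07053669.1 (37) and AABR07010907.1 (35). The first 3 had a median of 0 reads. A value of 0 means that no read was assigned at this depth, not that the model was not transcribed. Per library, from 2 to 22 members were at 0, with a median of 10, and the batch medians lay between 8.5 and 11 for the 4 batches with more than 1 rat.

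The median SD over rats was 0.65 log2 units in the members and 0.26 in the whole table, but the SD of a log2 value rises as the count falls. Set among the genes whose mean lay within 0.25, the median member stood at percentile 57.4 of SD. There were 5 members over percentile 95 (3.42% of the members), where 5% of genes lie by construction. Of these, AABR07058985.1 and AABR07009787.1 are described with the levels below, and the other 3 were well expressed.

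AABR07006310.1 had the widest spread of the well-expressed members. Its start lies at 228724901 of chromosome 1 (Rnor_6.0), 30966 bases from that of Dtx4 in the list. It had from 7 to 492 reads (median 149), an SD of 1.48 log2 units at percentile 98.7 of 757 genes with a like mean. A mixture of 2 normal distributions put 14 rats at 7 to 43 reads (median 16.5) and 66 at 45 to 492 (median 165). These components lay 3.40 component SDs apart, short of the limit of 4 for 2 levels, and the values run on from one to the other. Low rats were found in both sexes and in batches 2, 3, 4 and 6, which had medians of 83.5, 152, 195.5 and 150.5 reads.

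AABR07051450.1 showed the same kind of split at a high level. Its start lies at 11653530 of chromosome 3 (Rnor_6.0), and it had from 760 to 2560 reads (median 1371.5), an SD at percentile 98.3 of 1024 genes. In the mixture, 38 rats held 760 to 1265 reads (median 998) and 42 held 1335 to 2560 (median 1657), with means 0.77 log2 units and 3.92 component SDs apart, short of both limits for 2 levels. Of the 42 high rats, 21 were male and 21 female. Batch 4 had 11 of its 26 rats in the high group, batch 2 8 of 14, batch 3 12 of 23 and batch 6 10 of 16. The third, AABR07047771.1, had from 9 to 453 reads (median 105).

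A model was said to have 2 levels, one in a high and one in a low group of rats, under 4 conditions. A mixture of 2 normal distributions had to lower the Bayesian information criterion (BIC) by over 10. The distance of its means had to exceed 4 component SDs and reach 1 log2 unit, and the smaller group had to hold no fewer than 10% of the rats. There were 5 such members of 146 (3.42%), against 425 of 17250 genes (2.46%), so the share was near that of the whole table. These shares were not split by level, though 59.6% of the members had a mean under 5, against 24.5% of the table. AABR07058985.1 alone was called under every other threshold, covariate setting and pseudocount tried. The other 4 lost the call when the means had to lie over 5 component SDs apart or a pseudocount of 10 was used, and AABR07043407.1 lost it also when batch was removed with sex. Placeholder names gave 8 of 120, accession-named models 1 of 22 and ordinary symbols 20 of 3004. The members stand in the study's lists because their expression was associated with genotype in some brain region, which need not be the prelimbic cortex. Groups of rats are thus no independent finding, their link to genotype was not examined here, and no test was made.

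All 5 had at most 2 reads in the low rats. AABR07058985.1, with a start at 84269 of chromosome 4 (Rnor_6.0), had the largest fall in BIC (56.1). It had 0 to 2 reads in 52 rats and 3 to 25 (median 9) in 28. Its high rats were 13 males and 15 females and came from every batch: they were 6 of 14 rats of batch 2, 9 of 23 of batch 3, 8 of 26 of batch 4, the single rat of batch 5 and 4 of 16 of batch 6.

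Gng5-ps4 (AABR07033987.1) followed with a fall in BIC of 41.1. It had 0 to 2 reads in 38 rats and 2 to 22 (median 7.5) in 42, of which 21 were male and 21 female. Since a pseudogene resembles its parent, reads of Gng5 could be counted here or the reverse. The value is uncertain in that respect, which was not tested. AABR07050545.1 (fall in BIC 31.3) had 0 to 2 reads in 55 rats and 2 to 16 (median 6) in 25. AABR07053669.1 (29.2), at 119498797 of chromosome 3, had 0 or 1 read in 43 rats and 2 to 11 (median 3) in 37. In each of the 5 models the groups meet at 2 reads or lie 1 read apart, so single rats at the border could belong to either.

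AABR07043407.1 (fall in BIC 24.4) was the one whose smaller group was the low one. It had 0 or 1 read in 13 rats and 2 to 33 (median 8) in 67. The high rats made up 13 of 14 of batch 2, 21 of 23 of batch 3, 17 of 26 of batch 4, none of batch 5 and all 16 of batch 6, so the low rats lay mostly in batch 4. With batch removed together with sex, 2 levels were no longer called for this model.

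The splits were not shared closely with other genes. Counting only splits in the same direction among all other genes with 2 levels, the best match to AABR07058985.1 put 56 of 80 rats on the same side, where placing all rats on its larger side would match 52. The best matches to the other models agreed for 51 (Gng5-ps4), 54 (AABR07050545.1), 53 (AABR07053669.1) and 67 rats (AABR07043407.1), against larger groups of 42, 55, 43 and 67. For AABR07050545.1 and AABR07043407.1 no gene did better than that.

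**Figure D3:**
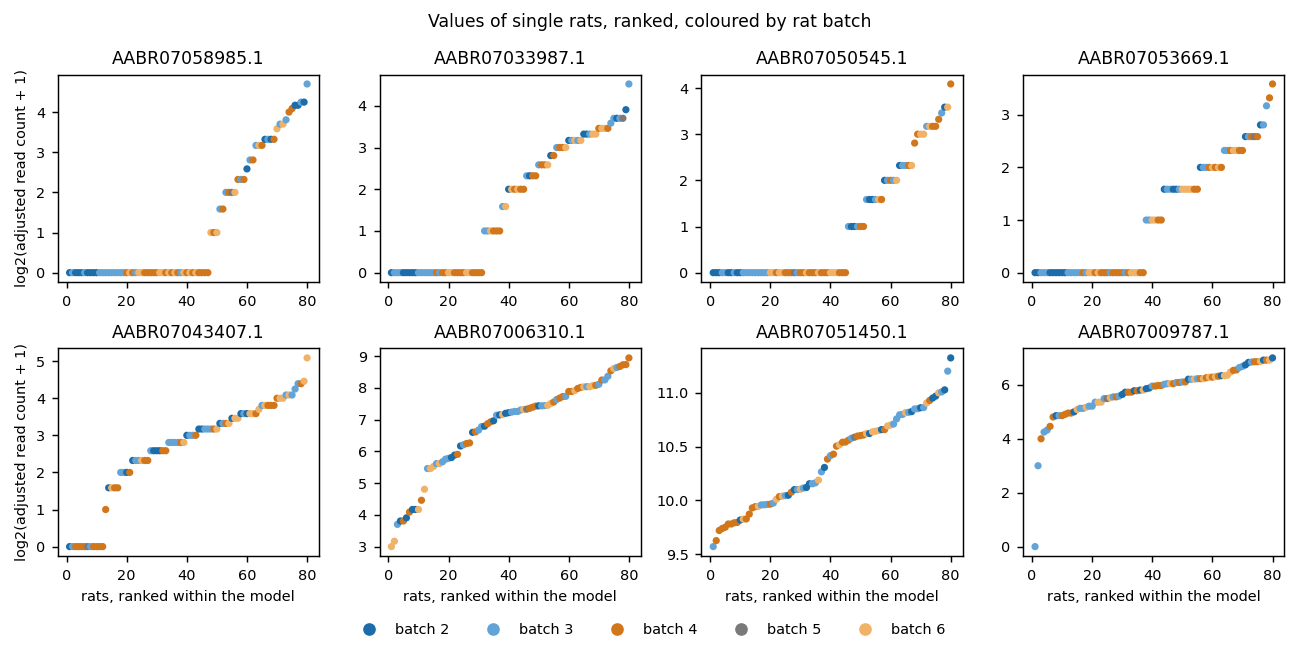
Values of the 80 rats in rank order (x) as log2(adjusted read count + 1) (y), coloured by rat batch, for the 5 models with 2 levels and, in the lower row, for AABR07006310.1, AABR07051450.1 and AABR07009787.1. The 5 models rise from a floor at 0, and AABR07009787.1 has 1 rat at 0. The mixture divides the rats of AABR07051450.1 between 1265 and 1335 reads.

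One member had the same values as another row. AABR07001160.1 had the same reads as the row ENSRNOG00000046855 in all 80 rats (0 to 17 reads, median 4.5), and the latter has no name in the lists. In the table, 142 rows (0.823%) were identical to another row, against 1 member of 146 (0.685%). The values of such a pair are uncertain, and their sequences were not compared. The next best match of any member was 42 rats of 80, through zeros, and a member never at 0 matched no row in more than 17 rats.

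Where the list gave a start, positions were known for 64 members, all on chromosomes 1 to 7, since the list was held only for these chromosomes. Chromosome 1 held 27 of them (42.2%), against 490 of 1910 listed genes with a position (25.7%). Another member lay within 1000000 bases of 15 of the 64. On chromosome 1, AABR07006310.1, AABR07006311.1 (start 228815674) and AABR07006333.1 (start 229206781) lay in one such group.

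Models of one contig did not share one pattern over rats. The members held 5 pairs whose names differ only after the point, and p-values were adjusted over these 5. AABR07051882.1 and AABR07051882.2 were the one pair that was associated over all rats (Pearson's r = 0.48, permutation p = 2e-05, adjusted p = 0.0001; Spearman's rho = 0.53, permutation p = 1e-05, adjusted p = 5e-05). No permutation p can fall under 1e-05 here. Without the 2 rats farthest from the median of the first model r was 0.51. Both models were higher in batches 4 and 6 than in 2 and 3 (0.67 ± 0.122 log2 units, limma adjusted p = 2.4e-06, and 0.52 ± 0.092, limma adjusted p = 1.3e-06). Within batches 2, 3, 4 and 6 r was 0.14, 0.47, 0.31 and 0.076. With the batch means removed and values permuted within batches, r was 0.27 (permutation p = 0.0229, adjusted p = 0.115), so the association did not pass the threshold apart from batch.

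The other pairs of a contig were not associated at an adjusted p under 0.05. AABR07002774.2 and AABR07002774.3, whose starts are 6317 bases apart on chromosome 1, gave r = 0.092 (permutation p = 0.419, adjusted p = 0.524; rho = 0.07, permutation p = 0.533, adjusted p = 0.666) and have mean log2 values of 7.36 and 2.04. AABR07005779.1 (Prr14) and AABR07005779.5, 743463 bases apart, gave r = 0.19 (permutation p = 0.0825, adjusted p = 0.14; rho = 0.196, permutation p = 0.0811, adjusted p = 0.203). AABR07053710.1 and AABR07053710.2 gave r = 0.19 (permutation p = 0.0839, adjusted p = 0.14; rho = 0.11, permutation p = 0.325, adjusted p = 0.541). AABR07058017.1 and AABR07058017.2 gave r = -0.063 (permutation p = 0.581, adjusted p = 0.581; rho = -0.038, permutation p = 0.737, adjusted p = 0.737). Without the 2 farthest rats these 4 pairs gave r = 0.093, 0.14, 0.11 and -0.0094. Within batches their r lay between -0.36 (AABR07002774, batch 2) and 0.56 (AABR07053710, batch 6), with both signs in each of the 4 pairs.

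A further 2 pairs from neighbouring contig numbers were picked after their values had been seen and are described without a test. AABR07070310.1 and AABR07070312.1 had r = 0.70 and rho = 0.68 over all rats and r = 0.68 without the 2 farthest rats. Within batches 2, 3, 4 and 6 it was 0.53, 0.70, 0.38 and 0.12, and both models differed between the batches. AABR07006310.1 and AABR07006311.1, whose starts are 90773 bases apart, had r = 0.32 and rho = 0.27, and r = 0.25 without the 2 farthest rats. The values within the same batches were 0.53, 0.093, 0.25 and 0.49.

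Sex was compared with limma on all 17250 genes, with batch in the model. No member had an adjusted p under 0.05 (0 of 146), against 63 genes of the table (0.365%), and 8 members had an unadjusted p under 0.05, against 1349 genes (7.82%). AABR07068728.1 had the smallest p, with 15 to 61 reads in males (median 32) and 11 to 43 in females (median 28.5). The difference was 0.28 ± 0.093 log2 units higher in males (SE; limma, adjusted p = 0.268), and the ranges overlap. AABR07068316.1 had a mean log2 value of 7.04 ± 0.38 (SD, n = 40) in males and 6.87 ± 0.37 (n = 40) in females (0.24 ± 0.082 higher in males, limma adjusted p = 0.307). Fndc4 had medians of 825.5 and 851 reads (-0.073 ± 0.029, male minus female, limma adjusted p = 0.434), AABR07060151.1 of 1 and 2 reads (-0.50 ± 0.197, limma adjusted p = 0.448) and AABR07006627.1 of 1501.5 and 1441.5 reads (0.080 ± 0.032, limma adjusted p = 0.456). In each of these 5 the sexes overlap over most of their range. A sex difference that depended on batch was tested in batches 2, 3, 4 and 6, and limma called 0 of 146 members and 0 of 17250 genes (0.0%). At an unadjusted p under 0.05 there were 8 members and 410 genes (2.38%).

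Rat batch was associated with 71 of 146 members (48.6%; limma F-test, adjusted p under 0.05), fewer than the 59.4% of the table. Genes with few reads were called less often, so members and table were both split at a mean of 5. Below it, 26 of 87 members (29.9%) and 24.7% of all genes passed. Above it, 45 of 59 members (76.3%) and 70.7% of all genes did. Rat batch was thus a feature of much of the table, and the share of members called was close to that of genes of a like level.

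The direction was less even. Batches 4 and 6 were set against 2 and 3 in the same model, a contrast chosen after earlier results of these data were known. In this contrast 56 members (38.4%) were higher in batches 4 and 6, against 28.8% of the table, and 17 (11.6%) were lower, against 26.6%. The median difference was 0.16 log2 units over the members and 0.014 over all genes. Among members with a mean of at least 5, 37 of 59 (62.7%) were higher and 6 (10.2%) lower, where the table gave 32.5% and 32.3%. Their median difference was 0.22, against -0.00065 over all genes of that level. Below 5 the directions of the members resembled those of the table, with 19 of 87 higher and 11 lower, against 17.3% and 8.99%. No test of the list as a whole was made. Placeholder names gave 35 higher and 24 lower of 120, ordinary symbols 877 and 837 of 3004, and accession-named models 5 and 1 of 22.

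**Figure D4:**
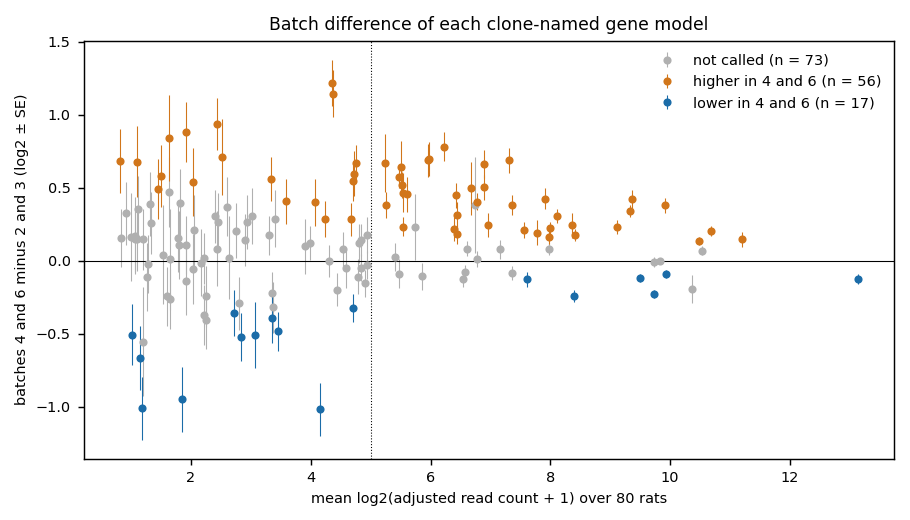
Difference between batches 4 and 6 and batches 2 and 3 (y, log2 units ± SE, limma) of each of the 146 clone-named gene models against its mean (x, log2(adjusted read count + 1)). Orange points were higher in batches 4 and 6 (56 models), blue points lower (17) and grey points not called (73); above the dotted line at 5, orange points outnumber blue ones by 37 to 6.

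Fewer members differed within each side. Batch 3 was higher than batch 2 in 3 members and lower in 3, against 2.07% and 3.63% of the table. Batch 6 was higher than batch 4 in 5 members and lower in 0, against 4.53% and 1.7% (limma; 4 members were lower at an unadjusted p under 0.05). The row for 5.8S ribosomal RNA, which polyA selection should remove, was mostly higher in batches 2 and 3. It had 266 to 1946 reads in batch 2 (median 751.5), 2 to 8411 in batch 3 (median 618), 2 to 27 in batch 4 (median 3) and 2 to 28 in batch 6 (median 7.5), and 3 of the 23 rats of batch 3 lay within the range of batches 4 and 6. Its part in the result was not tested.

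The smallest p for batch belonged to Ppp1r26 (AABR07051376.1, start 7035170 of chromosome 3, Rnor_6.0). Its reads ran from 410 to 604 in batch 2 (median 518.5), 484 to 776 in batch 3 (median 620), 602 to 810 in batch 4 (median 729.5) and 531 to 810 in batch 6 (median 677.5). All rats of batch 2 but the highest lay below the lowest rat of batch 4. It was 0.34 ± 0.039 log2 units higher in batches 4 and 6 (limma, adjusted p = 5.78e-12). Fndc4 (AABR07063279.1) was the exception among the 8 members with the smallest p, being 0.23 lower (-0.23 ± 0.029, limma adjusted p = 1.65e-10). Its medians were 929.5 and 903 reads in batches 2 and 3 and 796.5 and 778 in batches 4 and 6, with ranges that overlap.

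The other 6 were higher in batches 4 and 6. AABR07070310.1 had the largest difference, 1.22 ± 0.159 log2 units (limma, adjusted p = 5.26e-10), with medians of 10.5, 15, 28 and 31.5 reads in batches 2, 3, 4 and 6. The lowest rat of batch 6 had 17 reads, above the median of batches 2 and 3. Its neighbour in contig number, AABR07070312.1, moved likewise (1.14 ± 0.161, limma adjusted p = 4.92e-09). AABR07060341.2, at 68440510 of chromosome 4, had medians of 55, 61, 93 and 98 reads (0.78 ± 0.10). AABR07008439.1 had medians of 145.5, 114, 185.5 and 223 reads (0.69 ± 0.084) and AABR07034098.1 of 61, 38, 75.5 and 80.5 reads (0.69 ± 0.113). In both of these batch 3 was lower than batch 2 by its median. AABR07055917.1 had medians of 37, 34, 52.5 and 52 reads (0.58 ± 0.078). AABR07060487.1, at 75884734 of chromosome 4, had medians of 826, 808, 1109.5 and 1037.5 reads (0.38 ± 0.054). All 6 had an adjusted p of at most 2.3e-07, and in each the ranges of the batches overlap.

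**Figure D5:**
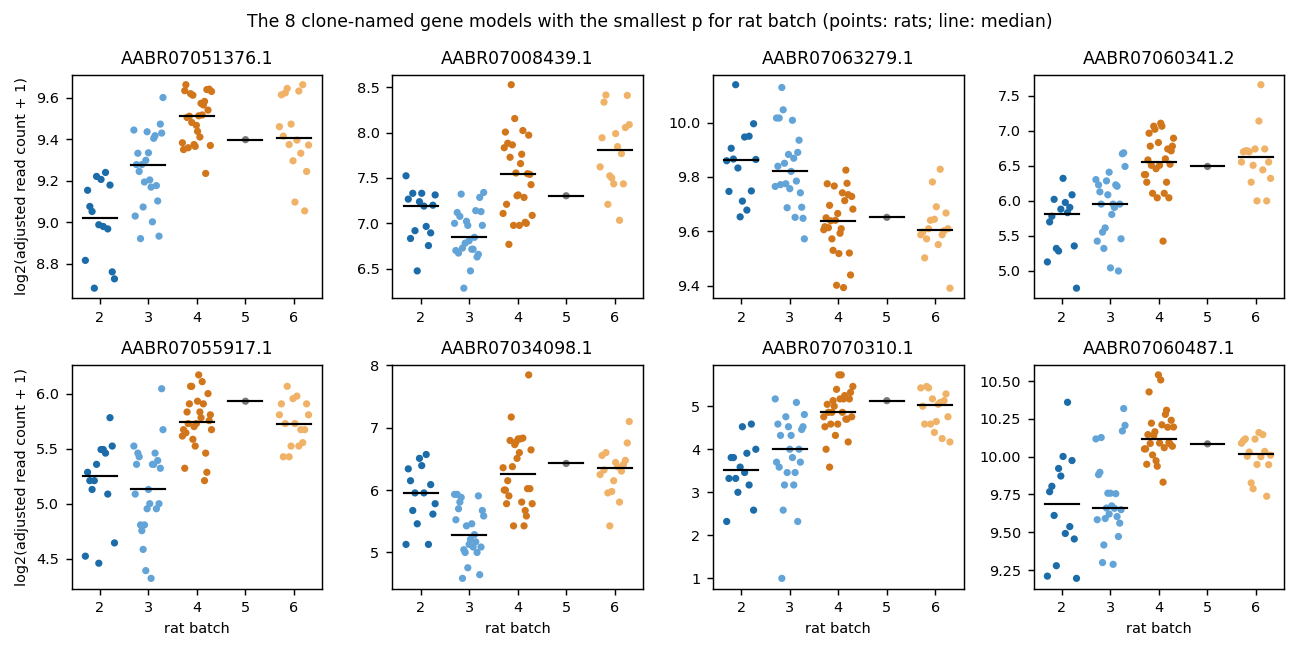
Values of the 80 rats (points, log2(adjusted read count + 1), y) by rat batch (x), with the batch median (line), for the 8 clone-named gene models with the smallest p for batch. In 7 of them batches 4 and 6 have the higher medians, and in AABR07063279.1 (Fndc4) the lower ones.

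The largest falls were seen in weakly expressed models. AABR07071876.1 fell by 1.02 log2 units (limma, adjusted p = 1.81e-06) and AABR07004912.2 by 1.01 (adjusted p = 4.36e-05). AABR07004912.2 had medians of 3.5, 2, 1 and 0.5 reads in batches 2, 3, 4 and 6. It was at 0 in 26 rats, so its fall was a change of a few reads. The 6 lower members with a mean of at least 5 differed less: they included AABR07058422.1, the strongest member (-0.13, adjusted p = 0.000897), and AABR07016841.1 (-0.24, adjusted p = 5.76e-07). Prr14 was 0.16 ± 0.047 higher (limma, adjusted p = 0.00245). Mettl8 was not called (-0.12 ± 0.057, adjusted p = 0.0597).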

How the data were processed

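Values were those of 80 prelimbic cortex libraries of HS rats, grouped by sex and rat batch from the labels. The authors trimmed reads with cutadapt, used RSEM and Ensembl rat transcripts (Rnor_6.0 in the labels) to estimate counts, applied an upper quartile adjustment in DESeq2, filtered samples and genes, and deposited log2 values of the adjusted count plus 1. Versions were not given in the sources used here. Here 2 to the power of the value, minus 1, was whole (within 0.1% of the count plus 1) for all entries, and is called reads. Because the values were adjusted, no count test was run. The adjustment hides depth, which was recovered from gaps in the whole numbers up to 300 (factors from 0.55 to 2.2). The recovery was tested on simulated libraries (58 of 60 within 1%), and 76 of 80 libraries gave one clear factor.

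Members were chosen by their names in the study's lists, held in part here, and the members, lists and tests were chosen with earlier results of these data known. The names in the text follow a rule on the highest, lowest and most variable members, those with most zeros, the smallest p for sex (5) and batch (8), 2 levels, shared values, contig pairs and RefSeq names. Other named members (AABR07006311.1, AABR07006333.1, AABR07009787.1, AABR07010468.1, AABR07016841.1, AABR07047771.1, AABR07051450.1, AABR07004912.2, AABR07070312.1 and AABR07071876.1) were picked after their values were seen. Named identifiers cover 19.1% of the table.

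Sex, batch and their interaction were tested with limma 3.58.1 in R 4.3.3 (lmFit, eBayes with a variance trend) on all 17250 genes, with Benjamini-Hochberg adjustment over all genes. Each test was tested on simulated data, drawn as normal values without a floor at 0 or whole-number steps. The mixture was fitted to residuals on sex and tested on values of the same kind. Such values do not resemble models with a few reads, so they do not test the calls of 2 levels made there. Correlations used 100000 permutations, two-sided. Python 3.11.15, numpy 2.4.6, scipy 1.17.1 and pandas 2.3.3 were used. Genotypes were not analysed here. Below a mean log2 value of 5 a member has few reads in a typical library, though single libraries can hold more (AABR07043711.1, mean 4.80, up to 79 reads).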

Additional observations from a re-analysis of the deposited data

How the results depend on the processing

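No member was called for sex under any of the 6 alternatives run. The 5 members named for sex kept their sign in all 28 refits, with a smallest adjusted p of 0.141 (limma). Leaving out batch 5, the variance trend or genes under a mean of 5 cannot change the fitted difference or its sign. The sign was therefore open only in the other refits. The 8 members named for batch passed in all 47 refits, with adjusted p of at most 7.01e-07. The number of members associated with batch was 46 in place of 71 when only genes with a mean log2 value of at least 5 were tested, since 59 members were left. With the same filter, 37 members were higher in batches 4 and 6 and 7 lower, in place of 56 and 17. Under the other alternatives for that contrast, added after the data had been seen (pseudocount of 10, inverse normal values, recovered depth as a covariate, another library scaling), both counts stayed within 1.5 times. The number of members with 2 levels was the least settled: it was 10 with means more than 3 component SDs apart (664 in the table), and 1 with more than 5 (222) or with a pseudocount of 10 (169), against 5 (425). The member left in both was AABR07058985.1. Removing batch with sex left 4 members, without AABR07043407.1. With 8 rats in place of 1, 37 members were at 0 in place of 57. The median level and the shared row did not change beyond these limits. No paired analysis was possible because each rat belongs to one sex and one batch and gave one prelimbic library. The correlation of AABR07051882.1 and AABR07051882.2 (r = 0.48) was 0.27 with batch removed (adjusted p = 0.115), an alternative added after the data had been seen. Depth limits the members with few reads, whose zeros and whose rats at the border of 2 levels can change by a read or a few.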

Other observations

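Some members held single rats far from the rest. AABR07009787.1 was at 0 in 1 rat of batch 3, while the other 79 rats had at least 7 reads (median 61). AABR07010468.1 had 12 reads in 1 rat and 29 to 89 in the others. These rats were left in every value above.

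Of the 146 members, 17 had an SD over percentile 90 of genes with a like mean, a share near the one that such a cut gives by construction. They included the weakly expressed AABR07058985.1 (mean log2 1.21) and the well-expressed AABR07051450.1 (10.37). How they were spread over the levels between was not examined.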
